A study of Drosophila melanogaster with 18 samples.

Results

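The binding of Ets21c, an ETS-domain transcription factor, was compared between the progenitor cells and the enterocytes of the adult Drosophila midgut. Progenitors are the intestinal stem cells and enteroblasts, written ISCs/EBs, and enterocytes are written ECs. The genes listed under the Ets21c fusion in the deposited table were matched between the cell types by FlyBase gene ID. They numbered 5184 in ISCs/EBs and 4854 in ECs, and 6609 genes were listed in at least 1 of the cell types, out of 7153 genes listed for Ets21c or for RNA polymerase II in the series. Of the 6609 genes, 3429 (51.9%) were bound in both cell types, 1755 (26.6%) in ISCs/EBs only and 1425 (21.6%) in ECs only. Bound here means assigned by the authors to an Ets21c peak that lies at most 5 kb away. These shares are the background for every group of genes described here.

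Stem cells of the midgut divide to renew themselves and to produce enteroblasts, which exit the stem cell state under Notch signaling and mature into absorptive, polyploid ECs. Stress to the epithelium activates the JNK pathway, which acts both in progenitors, where it promotes division, and in ECs, where it acts in stress defense and in the loss of damaged cells. ETS factors bind DNA around a GGAA core and often act beside AP-1, the Fos and Jun dimer through which JNK signals.

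Binding was measured by Targeted DamID, in which a bacterial adenine methylase (Dam) marks GATC sites near the protein that it is fused to. The fusion Dam-ets21c-RA or Dam alone was expressed for 72 hours at 29°C in the midgut of mated females, through esgTS for ISCs/EBs or Myo1ATS for ECs. Both drivers pair Gal4, under esg or Myo1A, with UAS-GFP and a ubiquitous temperature-sensitive Gal80. Each group had 3 samples made from pooled guts, but the Ets21c lists rest on fusion replicates 1 and 3, because the authors set replicate 2 of the fusion aside as noisy. The methods do not say which Dam alone samples entered each ratio. The driver and not a sort sets the cell type, and esgTS does not separate ISCs from EBs. In the polymerase lists of the same drivers, all 6 progenitor markers taken for a check (esg, Dl, Sox21a, klu, zfh2 and hdc) were present in ISCs/EBs and none in ECs. Of the longer list of 17 progenitor genes, 12 were in that of ISCs/EBs and 2, emc and Tis11, in that of ECs. Of 8 enterocyte markers, Myo31DF, mex1 and GATAe were in the polymerase list of ISCs/EBs, and mex1, GATAe and Jon99Ci in that of ECs, so the polymerase lists do not set ECs apart by these markers. None of 9 enteroendocrine markers was in either, although ttk, phyl and sina of a longer list of 18 were in that of ISCs/EBs. Of 12 visceral muscle markers Mef2 and how were in that of ISCs/EBs.

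The table gives 1 height per gene and cell type, the log2 of the signal under the fusion divided by that under Dam alone in the replicates the authors kept, with a false discovery rate (FDR). No spread between replicates can be given, the read depth is unknown, and no difference in height or listing was tested. A gene absent from a list has no height here, which sets no limit on the signal at that gene. Heights were alike in scale, with a median of 0.52 (quartiles 0.43 and 0.63) in ISCs/EBs and 0.51 (0.43 and 0.61) in ECs. Heights under 0.3, the minimum that the methods give, occur at 161 genes in ISCs/EBs and 125 in ECs.

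Shared binding was the most frequent outcome in the lists as deposited, and the share was larger at larger heights. With heights of at least 0.5 in each list it was not, since 1447 genes were then bound in both, 1585 in ISCs/EBs only and 1139 in ECs only. That cut was made in each list separately. A gene of both lists that passed it in a single list was counted as bound in that cell type only. In the lists as deposited the shared genes were 66.1% of the ISC/EB list and 70.6% of the EC list. Among genes with an ISC/EB height of 0.2 to 0.4, 46.6% (95% exact binomial interval 43.2 to 50.1, n = 824 genes) were also bound in ECs, against 91.1% (80.4 to 97.0, n = 56) of genes at 1.0 or more. Among EC heights of 0.2 to 0.4, 63.6% (60.1 to 66.9, n = 799) were also bound in ISCs/EBs, against 93.0% (80.9 to 98.5, n = 43) at 1.0 or more. The intervals cover the counting of genes alone, and neighboring genes that share a peak are not independent. Genes under a height of 0.2, 16 in ISCs/EBs and 4 in ECs, are too few for a share. The genes listed in a single cell type were correspondingly lower, with a median of 0.48 for ISCs/EBs only against 0.55 for shared genes in ISCs/EBs, and of 0.48 for ECs only against 0.52 for shared genes in ECs.

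**Figure D1:**
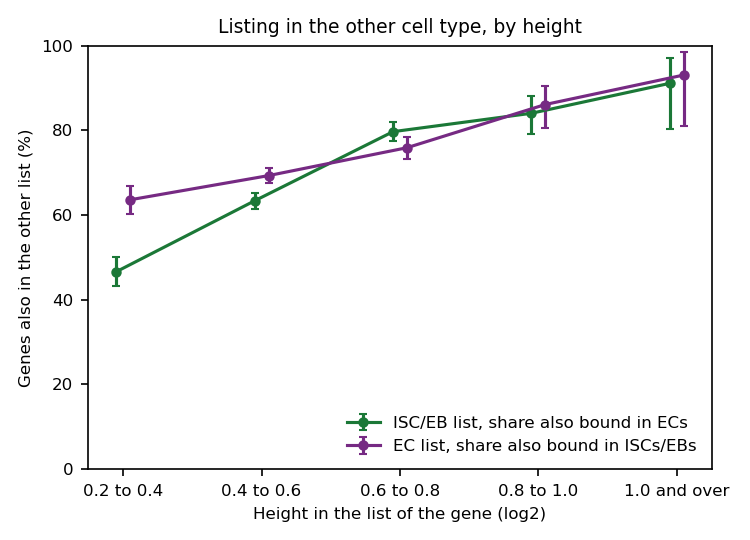
Share of genes (percent, vertical axis) that were also listed in the other cell type, by height in their own list (log2, horizontal axis), for the ISC/EB list in green and the EC list in purple. Bars are 95% exact binomial intervals, and bins of fewer than 20 genes are left out. Both curves climb, to 91.1% in the ISC/EB list and 93.0% in the EC list.

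Short motifs were counted near the gene start in each class, with no test made. The table places binding only to within 5 kb of a gene, so these windows, from 250 bases before to 50 bases after the annotated 5′ end in the Release 6 genome (RefSeq sequence), need not hold the bound site. The letters CCGGAA, a stronger ETS site, on either strand were found in 6.91% of windows of protein-coding genes bound in ISCs/EBs only, 6.40% in ECs only, 6.86% in both and 6.78% of all 13945 windows. The AP-1 letters TGANTCA were found in 6.43%, 7.28%, 6.60% and 6.18% in the same order. The letters AGATAA, read by factors such as GATAe, were found in 19.7%, 20.5%, 20.02% and 18.7%. GTGGGAA, read by Su(H), was found in 3.08%, 3.36%, 3.88% and 3.59%. The DREF site TATCGATA was found in 12.5%, 10.2%, 11.2% and 9.36%, with 7.99% in genes bound in neither cell type. The letters GAGAG were found in 32.1%, 29.4%, 33.5% and 29.7%, with 28.0% in neither. The E-box CAGGTG was found in 9.78%, 9.60%, 8.77% and 9.32%. Shared genes higher by 0.2 or more in ISCs/EBs (n = 471) and in ECs (n = 301) were also compared. CAGGTG was found in 9.98% and 5.98% of these, CCGGAA in 5.9% and 6.3%, and TGANTCA in 4.88% and 5.65%. AGATAA was found in 20.8% and 17.3%, GTGGGAA in 2.76% and 3.99%, TATCGATA in 9.13% and 11.3%, and GAGAG in 36.1% and 34.9%.

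Windows of 6 genes that carry the contrasts between the cell types are printed, 5′ to 3′ on the strand of the gene, with GGAA or its complement TTCC in capitals. That core is in 88.1% of all windows and marks no site. The windows are of kay (chr3R:29765745-29766044, plus strand), with the largest difference toward ISCs/EBs, scrib (chr3R:26536100-26536399, plus strand), among the largest toward ECs, E(spl)mbeta-HLH (chr3R:26005974-26006273, minus strand) and esg (chr2L:15333616-15333915, plus strand), bound in ISCs/EBs only, fz (chr3L:14274093-14274392, plus strand), bound in ECs only, and Imp (chrX:10824228-10824527, minus strand), shared and higher in ECs. kay and Imp have other starts downstream that are not shown.
kay: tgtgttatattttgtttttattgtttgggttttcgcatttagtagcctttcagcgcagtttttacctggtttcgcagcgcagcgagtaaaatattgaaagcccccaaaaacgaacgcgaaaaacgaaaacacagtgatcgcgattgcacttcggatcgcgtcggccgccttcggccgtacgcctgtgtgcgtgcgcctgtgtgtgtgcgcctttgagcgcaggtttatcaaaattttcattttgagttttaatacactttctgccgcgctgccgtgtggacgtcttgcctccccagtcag
scrib: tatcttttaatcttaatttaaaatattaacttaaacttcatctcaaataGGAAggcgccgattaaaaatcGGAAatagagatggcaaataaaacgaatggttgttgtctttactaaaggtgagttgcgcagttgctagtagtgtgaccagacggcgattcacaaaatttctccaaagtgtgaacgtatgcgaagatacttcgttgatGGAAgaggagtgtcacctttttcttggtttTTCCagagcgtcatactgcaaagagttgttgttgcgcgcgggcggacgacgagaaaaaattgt
E(spl)mbeta-HLH: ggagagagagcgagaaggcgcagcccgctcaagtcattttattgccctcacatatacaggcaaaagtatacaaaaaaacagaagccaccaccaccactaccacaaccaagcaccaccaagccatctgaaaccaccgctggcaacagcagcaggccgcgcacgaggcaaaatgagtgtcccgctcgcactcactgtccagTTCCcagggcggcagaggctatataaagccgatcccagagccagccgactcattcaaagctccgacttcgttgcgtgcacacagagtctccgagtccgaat
esg: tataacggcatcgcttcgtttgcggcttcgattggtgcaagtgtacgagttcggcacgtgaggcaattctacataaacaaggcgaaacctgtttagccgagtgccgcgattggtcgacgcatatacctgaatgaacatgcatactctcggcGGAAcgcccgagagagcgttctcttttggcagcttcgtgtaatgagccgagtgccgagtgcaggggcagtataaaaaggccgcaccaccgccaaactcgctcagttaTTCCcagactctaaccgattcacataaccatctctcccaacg
fz: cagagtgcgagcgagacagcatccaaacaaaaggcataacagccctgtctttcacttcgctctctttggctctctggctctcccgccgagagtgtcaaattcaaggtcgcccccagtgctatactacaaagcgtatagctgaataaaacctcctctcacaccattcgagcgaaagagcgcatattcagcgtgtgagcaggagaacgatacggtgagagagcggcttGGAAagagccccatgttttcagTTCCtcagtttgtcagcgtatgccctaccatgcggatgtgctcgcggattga
Imp: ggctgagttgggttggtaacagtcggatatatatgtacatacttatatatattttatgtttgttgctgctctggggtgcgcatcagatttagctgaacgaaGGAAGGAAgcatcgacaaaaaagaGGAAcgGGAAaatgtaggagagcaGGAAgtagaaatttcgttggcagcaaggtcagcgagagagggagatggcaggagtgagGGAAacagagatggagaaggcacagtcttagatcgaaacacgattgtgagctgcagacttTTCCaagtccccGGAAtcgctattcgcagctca
The core occurs 0 times in the window of kay, 4 times in that of scrib, 1 time in that of E(spl)mbeta-HLH, 2 times in those of esg and fz and 8 times in that of Imp, where 1 copy is part of CCGGAA.

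Among 25 gene lists the widest difference in listing lay at the Enhancer of split complex, a cluster of Notch target genes on chromosome arm 3R that encode bHLH repressors and Bearded-family proteins. In ISCs/EBs Ets21c was listed at 9 of its 11 genes and in ECs at none. Heights in ISCs/EBs were 0.62 for E(spl)m2-BFM, 0.58 for E(spl)mbeta-HLH and 0.56 for E(spl)m5-HLH. They were 0.51 for E(spl)malpha-BFM, 0.48 for E(spl)mgamma-HLH, 0.45 for E(spl)m3-HLH and E(spl)m4-BFM, and 0.34 for E(spl)m6-BFM and E(spl)m7-HLH. These are middling values for the list, so the complex stands out by its run of genes and not by height. E(spl)mdelta-HLH and E(spl)m8-HLH, at the ends of the cluster, were in neither list. From mdelta to m8, 15 of 18 annotated genes, 5 of them non-coding, were bound in ISCs/EBs over 38.2 kb (3R, 25999851 to 26038019 in the Release 6 genome) with 8 distinct pairs of height and FDR, so that several peaks underlie the run. Of the 9 complex genes, 8 had no gene within 5 kb in the EC list. The exception was E(spl)m7-HLH, close to gro, the gene of the corepressor Groucho, which was bound in both cell types (0.52 in ISCs/EBs and 0.61 in ECs). Of the complex, E(spl)mbeta-HLH (1.76) and E(spl)m3-HLH (1.41) were in the polymerase list of ISCs/EBs and none in that of ECs, and those ratios were formed against Dam alone of the same cell type, as the Ets21c ratios were.

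**Figure D2:**
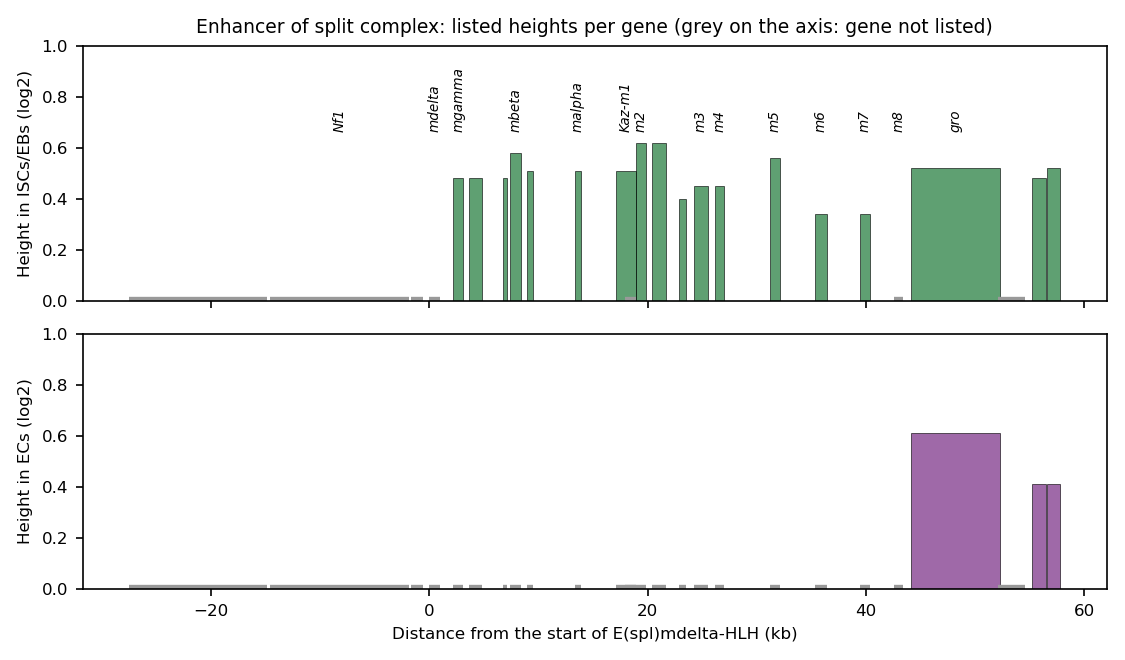
Listed Ets21c height (log2, vertical axes) of each gene around the Enhancer of split complex in ISCs/EBs (upper panel, green) and ECs (lower panel, purple), against distance from the start of E(spl)mdelta-HLH (kb, horizontal axis). The width of a bar is the gene, and grey marks on the axis are genes not listed; in ISCs/EBs 15 genes from mgamma to m7 carry a height, in ECs none does until gro.

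Progenitor genes went the same way. Of 17 progenitor markers and factors, 12 were bound, 5 in both cell types, 7 in ISCs/EBs only and 0 in ECs only. Listing in ISCs/EBs only thus held for 58.3% of the bound members, against 26.6% of all bound genes. The 7 were E(spl)mbeta-HLH, Sox21a (0.54), whose HMG-box product drives differentiation of EBs, sc (0.52), a proneural bHLH gene, Dl (0.50), the Notch ligand gene of stem cells, zfh2 (0.50), esg (0.45), the Snail-family repressor gene that maintains progenitors, and mira (0.28). For esg, Sox21a, zfh2 and E(spl)mbeta-HLH no gene within 5 kb was in the EC list, whereas mira had the height and FDR of a neighbor that was bound in both. The 5 shared progenitor genes were emc (0.90 in ISCs/EBs, 0.64 in ECs), Lrch (0.81 and 0.65), Tis11 (0.60 and 0.49), hdc (0.54 and 0.74) and klu (0.45 and 0.39), so that hdc alone was higher in ECs. All 6 markers used to check the drivers, which are part of this list, were thus bound in ISCs/EBs and 2 of them, klu and hdc, in ECs.

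In the Notch core pathway 11 of 19 genes were bound, with 6 (54.5%) shared, 4 (36.4%) in ISCs/EBs only and 1 in ECs only. Over all bound genes 51.9% were shared and 26.6% were in ISCs/EBs only. Beside Dl the ISC/EB-only genes were kuz (0.60), which encodes the ADAM protease that cleaves Notch, mib1 (0.59), a ubiquitin ligase gene for Notch ligands, and fng (0.34), a glycosyltransferase gene. The receptor gene N was bound in both (0.47 in ISCs/EBs, 0.51 in ECs), as were neur (0.51 and 0.66), numb (0.53 and 0.46), mam (0.53 and 0.46) and Hey (0.64 and 0.39). The EC-only gene was aph-1 (0.48), a gamma-secretase subunit gene, which shared the height and FDR of a neighbor bound in both. Su(H), the DNA-binding partner of Notch, was in neither list.

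Of 18 enteroendocrine genes 6 were bound, compared with 40.7% of annotated protein-coding genes. Bound in ISCs/EBs only were pros (0.73), which specifies enteroendocrine cells, Orcokinin (0.49) and phyl (0.47). Bound in ECs only were the peptide hormone genes Dh31 (0.99) and AstA (0.70). Of the 6 only ttk, which represses the enteroendocrine fate, was bound in both (0.49 in ISCs/EBs, 0.45 in ECs). Enterocyte genes did not show the mirror image of the progenitor genes. Of the 15 bound among 23, 13 (86.7%) were bound in both cell types, against 51.9% of all bound genes. They included the GATA factor gene GATAe (0.53 in ISCs/EBs, 0.51 in ECs), nub (0.40 and 0.45), Hnf4 (0.63 and 0.46), the brush border gene Myo31DF (0.54 and 0.63), mex1 (0.55 and 0.52) and the amylase gene Amy-p (0.80 and 0.76). LManI, a lysosomal mannosidase gene (0.64), was bound in ECs only, and alphaTry, a trypsin gene (1.0), in ISCs/EBs only, although alphaTry shared its height and FDR with a neighbor bound in both. Visceral muscle markers, from cells that neither driver is used to mark, were bound at 7 of 13 genes, 4 in both, 2 in ISCs/EBs only (bt 0.80 and how 0.62) and 1 in ECs only (wupA 0.53). Among all bound genes 51.9% were in both, 26.6% in ISCs/EBs only and 21.6% in ECs only. The shared muscle genes were TpnC73F (0.69 in ISCs/EBs, 0.29 in ECs), Mlp84B (0.68 and 0.44), vkg (0.57 and 0.30) and Mef2 (0.60 and 0.63), while Mhc, Mlp60A, sls and up were among the 6 in neither list. The part of muscle DNA in the results was not tested.

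**Figure D3:**
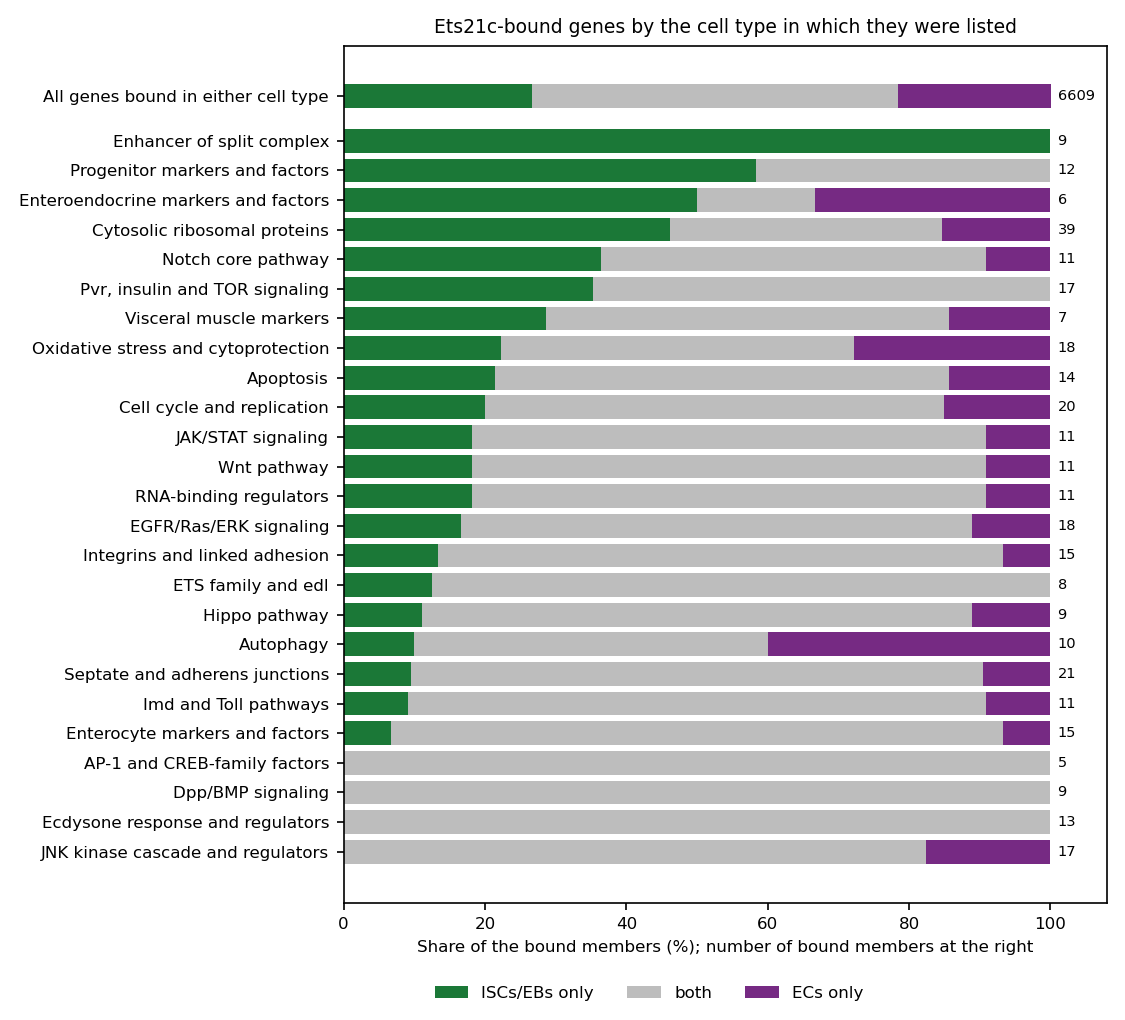
Share of the bound members of each gene list (percent, horizontal axis) that were listed in ISCs/EBs only (green), in both (grey) or in ECs only (purple), with the number of bound members at the right and all 6609 bound genes at the top. The Enhancer of split complex is wholly green, the progenitor list has 58.3% in ISCs/EBs only, and the ecdysone, Dpp and AP-1 lists are wholly shared.

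Genes of the JNK pathway were mainly shared. Of 22 genes of the JNK kinase cascade and its regulators, 14 were bound in both cell types, 0 in ISCs/EBs only and 3 in ECs only. Among all bound genes these classes held 51.9%, 26.6% and 21.6%. Of the 14, 5 were higher in ISCs/EBs, 8 in ECs and 1 was equal, and by 0.2 or more 1 was higher in ISCs/EBs and 2 in ECs, against 555 (16.2%) and 338 (9.86%) of all 3429 shared genes. puc, the JNK phosphatase gene that is itself a JNK target, had 0.60 in ISCs/EBs and 1.06 in ECs, and hep, the JNK kinase gene, 0.61 in ISCs/EBs and 0.93 in ECs. The TNF ligand gene egr had 0.57 in ISCs/EBs and 0.70 in ECs, Tak1 0.35 in ISCs/EBs and 0.50 in ECs, and bsk, which encodes JNK, 0.55 in both. The opposite held for Mekk1, a MAP3K gene (0.83 in ISCs/EBs, 0.47 in ECs), msn (0.65 and 0.50), Ask1 (0.53 and 0.39), POSH (0.56 and 0.44) and Traf4 (0.60 and 0.52). The EC-only genes were Rho1 (0.64), the JNKKK gene slpr (0.58) and Traf6 (0.30), of which Rho1 shared the height and FDR of a neighbor bound in both. The receptor genes grnd and wgn and the kinase gene Mkk4 were in neither list.

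The AP-1 and CREB-family genes that act with or after JNK were bound in both cell types wherever they were bound, at 5 of 7. Among all bound genes 51.9% were shared. By 0.2 or more, 2 of the 5 were higher in ISCs/EBs and 0 in ECs, against 16.2% and 9.86% of all shared genes. The gene of Fos, kay, had 1.39 in ISCs/EBs and 0.57 in ECs, which was the largest difference of all 3429 shared genes (0.82, shared with lncRNA:CR46110 under equal heights and FDRs). Jra, the Jun gene, had 0.78 in ISCs/EBs and 0.46 in ECs, Atf3 0.67 and 0.59, CrebA, on chromosome arm 3L, 0.65 and 0.57, and crc, the ATF4 gene, 0.35 and 0.34. The ETS family itself was bound at 8 of 9 genes, 7 of them (87.5%) in both, against 51.9% of all bound genes. Ets65A had 0.88 in ISCs/EBs and 0.42 in ECs, the EGFR effector gene pnt 0.78 and 0.53, and its antagonist aop 0.78 and 0.67. Ets97D (0.38) was bound in ISCs/EBs only. Ets21C had 0.36 in ISCs/EBs and 0.47 in ECs, but its coding sequence is carried by the fusion transgene, whose part in these heights was not tested.

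**Figure D4:**
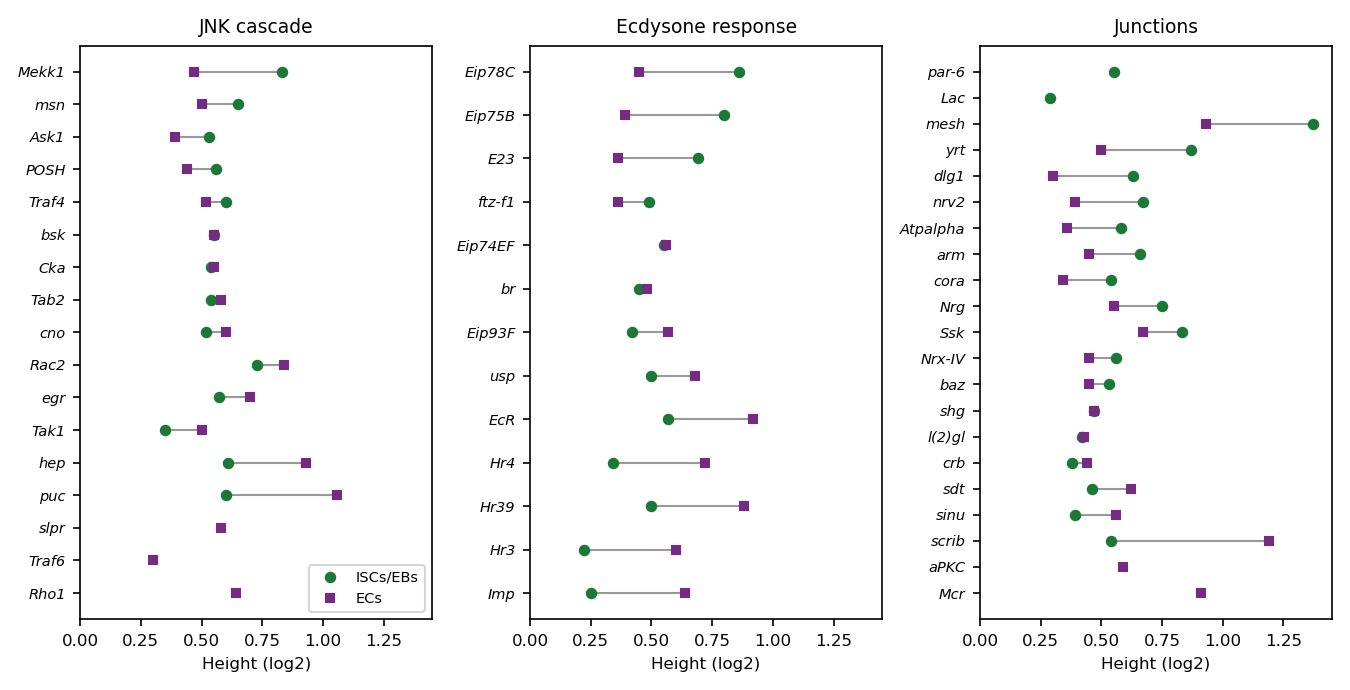
Ets21c height (log2, horizontal axis) of each bound gene of the JNK cascade, the ecdysone response and the junction list in ISCs/EBs (green circles) and ECs (purple squares), joined where both were listed and ordered by the difference. puc and hep lie farther right in ECs, Mekk1 in ISCs/EBs, and Imp, Hr3, Hr39, Hr4 and EcR are spread toward ECs.

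The genes of the ecdysone response split within the pathway, although all 13 bound members of 14 were bound in both cell types. By 0.2 or more, 3 of the 13 were higher in ISCs/EBs and 5 in ECs, against 16.2% and 9.86% of all shared genes. Higher in ECs were EcR, the receptor gene (0.57 in ISCs/EBs, 0.92 in ECs), the nuclear receptor genes Hr39 (0.50 and 0.88), Hr4 (0.34 and 0.72) and Hr3 (0.22 and 0.60), and the RNA-binding protein gene Imp (0.25 and 0.64). Of these, Hr3 and Imp have ISC/EB heights under 0.3, the minimum that the methods give. Imp is also a member of the list of RNA-binding regulators. The gene of the EcR partner, usp, had 0.50 in ISCs/EBs and 0.68 in ECs, and Eip93F, a steroid-induced transcription factor gene, 0.42 and 0.57. Higher in ISCs/EBs were the nuclear receptor genes Eip78C (0.86 in ISCs/EBs, 0.45 in ECs) and Eip75B (0.80 and 0.39) and the transporter gene E23 (0.69 and 0.36). Eip74EF (0.55 and 0.56) and br (0.45 and 0.48) were close to equal.

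Genes of growth factor and nutrient signaling were mostly shared. Of 23 genes of Pvr, insulin and TOR signaling 17 were bound. Of these, 11 (64.7%) were shared, 6 (35.3%) were bound in ISCs/EBs only and 0 in ECs only. Over all bound genes the shares were 51.9%, 26.6% and 21.6%. The 6 were raptor (0.58), a TORC1 subunit gene, Pvf3 (0.57) and Pvf2 (0.25), ligand genes of the receptor Pvr, Pdk1 (0.56), Thor (0.55), the 4E-BP gene, and Rheb (0.52). Pvf2 and Pvf3 lie in a run of 6 genes bound in ISCs/EBs only with 5 distinct pairs of height and FDR, and neither had a gene within 5 kb in the EC list. The other 4 each had one, and Thor shared its height and FDR with a neighbor bound in both. The receptor gene Pvr was high in both cell types (0.91 in ISCs/EBs, 0.88 in ECs), as was S6k (0.90 and 0.76). Pvf1 had 0.48 in ISCs/EBs and 0.59 in ECs. None of the 11 shared genes differed by 0.2 or more.

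Among 29 cell cycle genes 20 were bound, 13 in both, 4 in ISCs/EBs only, namely Cdk1 (0.68), dup (0.52), dap (0.45) and polo (0.38), and 3 in ECs only, twe (0.53), Mcm2 (0.45) and Rbf (0.29), of which Rbf shared the height and FDR of a neighbor bound in both. By 0.2 or more, 0 of the 13 shared genes were higher in ISCs/EBs and 3 in ECs, against 16.2% and 9.86% of all shared genes. The 3 were geminin, the inhibitor of replication licensing (0.90 in ISCs/EBs, 1.35 in ECs), RnrL, of nucleotide synthesis (0.20 and 0.51), and CycE, the S-phase cyclin gene (0.34 and 0.59). The heights and FDRs of geminin were also those of sced, so its difference is not particular to geminin. The DNA replication gene Mcm10, outside this list and among the largest differences toward ECs, had 0.17 in ISCs/EBs and 0.74 in ECs. The ISC/EB heights of RnrL and Mcm10 lie under 0.3, the minimum that the methods give. CycA, CycB and stg were in neither list.

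Of 86 genes of cytosolic ribosomal proteins, 39 were bound, 15 (38.5%) in both, 18 (46.2%) in ISCs/EBs only and 6 (15.4%) in ECs only. Over all bound genes the shares were 51.9%, 26.6% and 21.6%. Of the 39, RpS15Aa, RpL24, RpL11, RpL29 and RpLP2 in ISCs/EBs only and RpS6 and RpL35 in ECs only had the height and FDR of a neighbor bound in both. The largest heights were 0.96 for RpL23 and 0.77 for RpS15Aa in ISCs/EBs only and 0.79 for RpL5 and 0.52 for RpS6 in ECs only. RpL10 was high in both (1.01 in ISCs/EBs, 0.84 in ECs). Of the 18, 5 had no gene within 5 kb in the EC list, and of the 6, 1 had none in the ISC/EB list, so that many of these short genes lie beside genes that were bound in the other cell type.

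Most bound genes of 5 other signaling pathways were shared, as were 51.9% of all bound genes. In JAK/STAT signaling 8 of 11 bound genes were shared, among them the cytokine genes upd3 (0.77 in ISCs/EBs, 0.48 in ECs), upd2 (0.69 and 0.61) and upd1 (0.30 and 0.35), Stat92E (0.63 and 0.59) and the kinase gene hop (0.63 and 0.71), while the receptor gene dome was in neither list. In EGFR/Ras/ERK signaling 13 of 18 were shared. The repressor gene cic had 0.91 in ISCs/EBs and 0.42 in ECs and the ubiquitin ligase gene Cbl 0.79 and 0.51, whereas the receptor gene Egfr had 0.55 and 0.62 and the ligand gene spi 0.67 and 0.62. Bound in ISCs/EBs only were grk (0.64), Ras85D (0.42) and csw (0.33), and in ECs only drk (0.54) and rl (0.46), the ERK gene, while grk shared the height and FDR of a neighbor bound in both. All 9 bound Dpp genes were shared, with the BMP receptor gene tkv at 0.66 in ISCs/EBs and 0.58 in ECs and the ligand gene dpp in neither list. In the Wnt pathway the frizzled receptor genes differed. fz was bound in ECs only (0.88), fz2 had 0.79 in ISCs/EBs and 0.43 in ECs, and fz3 had 0.38 in ISCs/EBs and 0.58 in ECs. The gene of the kinase GSK3, sgg, had 0.85 in ISCs/EBs and 1.20 in ECs. Of 9 bound Hippo pathway genes 7 were shared, while its effector gene yki was bound in ECs only (0.33) and ft in ISCs/EBs only (0.34), under the height and FDR of a neighbor bound in both.

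Among shared genes of adhesion and polarity, differences of 0.2 or more lay mostly toward ISCs/EBs. Of 21 bound junction genes among 27, 17 (81.0%) were shared, against 51.9% of all bound genes. By 0.2 or more, 8 of the 17 were higher in ISCs/EBs and 1 in ECs, against 16.2% and 9.86% of all shared genes. Of the 8, Nrg and cora differed by 0.20, arm by 0.21 and Atpalpha by 0.22, at or just over the step. The 8 were not recounted with centred heights, under which the excess toward ISCs/EBs among all shared genes was gone. The gene of the smooth septate junction protein Mesh had 1.37 in ISCs/EBs and 0.93 in ECs, yrt 0.87 and 0.50, nrv2 0.67 and 0.39, dlg1 0.63 and 0.30, and arm, which encodes beta-catenin, 0.66 and 0.45. The exception was scrib, the partner of dlg1 in basolateral polarity, with 0.54 in ISCs/EBs and 1.19 in ECs. Another gene of that module, l(2)gl, had 0.42 in ISCs/EBs and 0.43 in ECs. Mcr (0.91), a septate junction gene, and aPKC (0.59) were bound in ECs only, and par-6 (0.55) and Lac (0.29) in ISCs/EBs only. Among integrins and linked genes 12 of 15 were shared, 2 of them higher by 0.2 or more in ISCs/EBs and 0 in ECs. The 2, both on chromosome arm 3L, were the talin gene rhea (1.20 in ISCs/EBs, 0.52 in ECs) and the laminin gene LanA (0.61 and 0.40). Fak was high in both (0.88 and 0.93), the laminin gene LanB2 (0.70) was bound in ISCs/EBs only, and the integrin gene if (0.58) in ECs only.

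Genes of autophagy and of oxidative stress were spread over all 3 classes. Over all bound genes 51.9% were in both, 26.6% in ISCs/EBs only and 21.6% in ECs only. Of 18 autophagy genes 10 were bound, 5 in both, 1 in ISCs/EBs only and 4 in ECs only. The EC-only genes were Atg12 (0.45), Atg3 (0.42), Atg4a (0.30) and Atg2 (0.28), of which Atg12, Atg3 and Atg4a act in the conjugation system of autophagy. Atg12 had no gene within 5 kb in the ISC/EB list, and the other 3 each had one. Atg8a (0.36), whose product is conjugated by it, was bound in ISCs/EBs only. Of the shared genes ref(2)P, the p62 gene, had 0.63 in ISCs/EBs and 0.83 in ECs, Atg5 0.77 and 0.87, and Atg1 0.40 and 0.34. Of 31 genes of oxidative stress and cytoprotection 18 were bound, 9 in both, 4 in ISCs/EBs only and 5 in ECs only. The 4 were Cat, the catalase gene (0.51), Trxr-1 (0.47), GstD2 (0.35) and Prx3 (0.21), and the 5 were GstD10 (0.77), Trx-2 (0.71), GstD1 (0.65), fax (0.65) and Keap1 (0.42). Of these, Trxr-1 and GstD1 shared the height and FDR of a neighbor bound in both. Keap1 and cnc encode the repressor and the activator of the Nrf2 response, and cnc was bound in both (0.60 in ISCs/EBs, 0.45 in ECs), as were PEK (0.59 and 0.55) and Jafrac1 (0.69 and 0.64).

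Genes of cell death and immunity were higher in ISCs/EBs where they differed by 0.2 or more, with the exception of dl. Of 14 bound apoptosis genes 9 (64.3%) were shared, against 51.9% of all bound genes. By 0.2 or more, 3 of the 9 were higher in ISCs/EBs and 0 in ECs, against 16.2% and 9.86% of all shared genes. The effector caspase gene Decay had 0.87 in ISCs/EBs and 0.40 in ECs, the inhibitor gene Diap2 0.67 and 0.30, and hid 0.69 and 0.43. Dark, the Apaf-1 gene, was high in both (0.89 and 1.07). p53 (0.73) and Strica (0.51) were bound in ECs only, and Damm (0.55), Dcp-1 (0.50) and Dredd (0.44) in ISCs/EBs only, of which Dredd shared the height and FDR of a neighbor bound in both. Of 11 bound Imd and Toll genes 9 (81.8%) were shared, 3 of them higher by 0.2 or more in ISCs/EBs and 1 in ECs. Diap2 is a member of both lists and was counted among the 3 in each. The peptidoglycan receptor gene PGRP-LC had 1.04 in ISCs/EBs and 0.57 in ECs, the negative regulator gene PGRP-LB 0.58 and 0.27, and Rel, the NF-kappaB gene of Imd, 0.48 and 0.47. The Toll effector gene dl had 0.55 in ISCs/EBs and 0.80 in ECs. Among RNA-binding regulators Syp had 0.87 in ISCs/EBs and 0.45 in ECs, opposite in direction to Imp, and lin-28 (0.56) was bound in ISCs/EBs only.

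Over all 3429 shared genes the median difference, ISCs/EBs minus ECs, was 0.03 (quartiles -0.08 and 0.14, range -0.80 to 0.82), and 2536 (74.0%) differed by less than 0.2. When heights were centred at the median of the shared genes in each cell type, the split of 555 against 338 became 431 against 441, and the excess toward ISCs/EBs was gone. The largest differences toward ISCs/EBs after kay belonged to Cyp6a20, a cytochrome P450 gene (1.17 in ISCs/EBs, 0.43 in ECs), CG6424 (1.36 and 0.63), CG15125 with lncRNA:CR44214 (1.08 and 0.38), CG4301 (1.07 and 0.38), rhea, dpr14 (1.01 and 0.34) and the mitochondrial import gene Tim17b2 (1.04 and 0.43). Toward ECs they belonged to hppy, a MAP4K gene (0.42 in ISCs/EBs, 1.22 in ECs), retm (0.25 and 0.99), scrib, CG15818 with CG5181 (0.51 and 1.10), the adenosine receptor gene AdoR (0.30 and 0.89), CHORD with CG5515 (0.15 and 0.74), Mcm10, and c12.1 with c12.2 (0.33 and 0.90). Pairs named together are neighbors with equal heights and FDRs in both cell types. The EC FDRs of hppy (0.00712), AdoR (0.00714), CHORD (0.00714) and Mcm10 (0.00829) lie near the highest of the EC list, 0.00829, while those of scrib and CG15818 are listed as 0. The ISC/EB heights of retm, CHORD, CG5515 and Mcm10 lie under 0.3, the minimum that the methods give. Of the 10 genes toward ISCs/EBs, at 8 loci when neighbors under equal values count once, 5 were in the polymerase list of ISCs/EBs and 3 in that of ECs, and of the 11 toward ECs, also at 8 loci, none was in either. Of all shared genes 34.5% were in the polymerase list of ISCs/EBs and 13.5% in that of ECs. The polymerase ratios were formed against Dam alone of the same cell type, as the Ets21c ratios were, and the part of Dam alone was not tested.

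**Figure D5:**
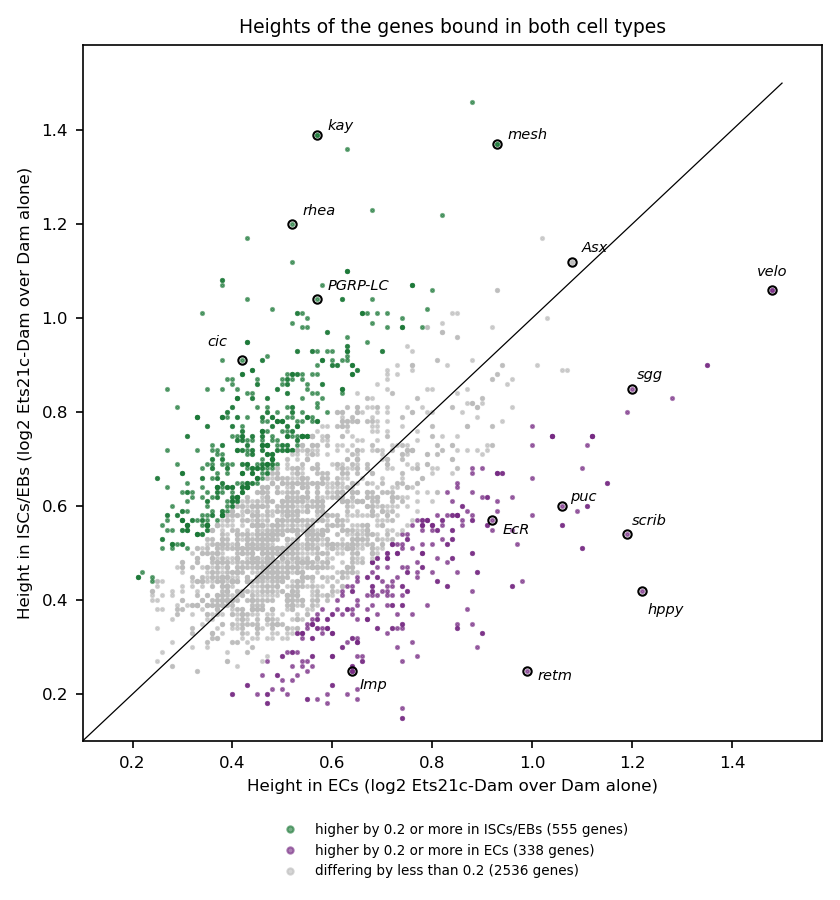
Height in ISCs/EBs (log2, vertical axis) against height in ECs (log2, horizontal axis) of the 3429 genes bound in both cell types, 1 point per gene, with the line of equality and named genes circled. The 555 genes higher by 0.2 or more in ISCs/EBs are green and the 338 higher in ECs purple; kay, mesh and rhea lie far above the line, scrib, hppy and puc far below it.

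Genes high in both cell types included velo, a SUMO protease gene, with its neighbor dikar (1.06 in ISCs/EBs, 1.48 in ECs), Asx, a Polycomb-group gene, with Cpsf160 (1.12 and 1.08), Cyp6a21 (1.17 and 1.02), CG1812 (1.0 and 1.03), APC4 with HP1b (1.06 and 0.93), and mesh with bnk. The highest genes bound in ISCs/EBs only were CG14456 (1.04), the Toll-family receptor gene 18w (1.03), the annexin gene AnxB9 with r-l (1.0), alphaTry (1.0), RpL23 with CG13531 (0.96), CG34325 with CG13008 (0.93) and CG6959 (0.92). In ECs only they were CG32750 (1.06), CG10947 (1.01), MFS18 (1.0), the protease gene Bace with Dh31 (0.99), CG34194 (0.94), Ir75a (0.93), CG33228 (0.92) and, at 0.91, mspo with CG30479, Mcr with asRNA:CR45257, and CG18745. A gene high in a single list often lay beside one in the other. Of these, CG14456 and alphaTry in ISCs/EBs, and MFS18, CG34194, CG33228 and CG18745 in ECs, had the height and FDR of a neighbor bound in both. Of the 10 highest in ISCs/EBs only, 7 had a gene within 5 kb in the EC list, and of the 13 highest in ECs only, 7 had one in the ISC/EB list.

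That held for the classes as a whole. A gene within 5 kb was in the EC list for 62.7% of genes bound in ISCs/EBs only, and in the ISC/EB list for 63.1% of genes bound in ECs only, against 42.5% and 44.3% of the annotated genes bound in neither. For genes bound in both, another gene within 5 kb was in the EC list for 91.7% and in the ISC/EB list for 92.5%. Of the genes bound in ISCs/EBs only, 269 (15.4%) had the height and FDR of a neighbor that was bound in both, and 226 (15.9%) of those in ECs only. With no gene within 5 kb in the other list, 651 genes were bound in ISCs/EBs only and 524 in ECs only, and these hold 8 of the 9 genes of the Enhancer of split complex. The longest runs of neighbors bound in a single cell type were 8 genes in ISCs/EBs, from E(spl)m2-BFM to E(spl)m7-HLH, and 7 genes in ECs, from CG32112 to Hip1 on 3L with 4 distinct pairs of height and FDR. Runs of 5 or more numbered 21 in ISCs/EBs only and 11 in ECs only. Another run in ISCs/EBs held 7 genes around Col4a1, a collagen IV gene, under 1 pair of height and FDR (0.57), and one in ECs the lipophorin receptor genes LpR1 and LpR2.

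Genes bound in both cell types were longer, with a median of 3110 bp, than genes bound in ISCs/EBs only (2071 bp), in ECs only (2017 bp) or in neither (1270 bp). They held a median of 14 GATC sites, against 9, 9 and 5. Long non-coding RNA genes were bound in ISCs/EBs only at 142 of 423 (33.6%) and in ECs only at 71 (16.8%), compared with 25.7% and 21.9% of bound protein-coding genes.

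Chromosome arm 3L differed from the rest. Its median height in ISCs/EBs was 0.57, against 0.50 to 0.52 on the other chromosomes, and 6.31% of its ISC/EB heights lay under 0.4 against 17.4% to 19.2% on X, 2L, 2R and 3R. In ECs its median was 0.49 against 0.47 to 0.51. Of the shared genes on 3L, 26.8% were higher by 0.2 or more in ISCs/EBs and 5.01% in ECs, against 11.1% to 16.7% and 9.24% to 12.3% on X, 2L, 2R and 3R. Without 3L the genes higher by 0.2 or more numbered 373 in ISCs/EBs and 304 in ECs. The arm also held fewer genes bound in ISCs/EBs only (273) than in ECs only (325), the reverse of X, where 314 genes were bound in ISCs/EBs only and 183 in ECs only. rhea, PGRP-LC, Eip75B, Eip78C, Ets65A, fz2, emc, Cbl and hid lie on 3L, and their differences less the median of the arm (0.08) were 0.60, 0.39, 0.33, 0.33, 0.38, 0.28, 0.18, 0.20 and 0.18 in that order. Other named genes of the arm include TpnC73F (0.40, or 0.32 less that median), LanA (0.21, or 0.13) and msn (0.15, or 0.07). The part of the arm in their differences was not tested.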

How the data were processed

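Ets21c binding was measured by Targeted DamID in ISCs/EBs and ECs. Per the methods, the authors computed a log2 ratio of Dam-fusion over Dam alone per GATC fragment with damidseq_pipeline, called peaks at an FDR under 1% that were present in the replicates they kept, and assigned to each peak the genes at most 5 kb away that no other gene separates from it. The deposited log2 heights are 1 per gene and cell type, and how the authors combined the kept replicates into them is not given for Ets21c in the sources used here. The deposited FDR is a q-value per peak and not a p-value. The methods give a minimum height of 0.3, but 161 genes in ISCs/EBs and 125 in ECs lie under it and the lists start at 0.15 and 0.14, close to the 0.1 of the file header, so the listed values were used as they stand. The read depth of the samples and the aligner are not given in the sources used here, and the precision of a height is unknown. The submitters' processing notes name build dm3, so coordinates and windows come from a match of gene IDs to the Release 6 annotation (FlyBase 6.54, Ensembl 115) and not from the table.

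Genes were matched between the lists by FlyBase ID, and the difference of heights was taken as ISCs/EBs minus ECs. jus, listed 2 times in ECs (0.43 and 0.56), was kept once at 0.56. Of the 6609 genes, 6584 had a gene ID in the annotation of 18358 genes without transposable elements, and measures that need a position use these. Genes next to each other with equal height and FDR were taken to share a peak. Named genes were the 10 with the largest and smallest differences, the 10 highest in each class with ties kept, and members of 25 gene lists. Mig6 and vil of these lists were not found under their names. The groups of genes, lists and motifs were chosen with earlier results of these data known. Motifs were searched on both strands. The counting was tested on simulated data. Alternatives were a height minimum of 0.3 or 0.5, an FDR listed as 0, protein-coding genes alone, 1 gene per peak, no neighbor in the other list, centred heights and a step of 0.4. Python 3.11.15, numpy 2.4.6, pandas 2.3.3, scipy 1.17.1 and matplotlib 3.10.9 were used.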

Additional observations from a re-analysis of the deposited data

How the results depend on the processing

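The table holds 1 value per gene and cell type, so no replicate could be left out and no spread or depth is known. No paired analysis was possible because the table gives no value per sample. Cuts on height and FDR were made in each list separately. A gene of both lists that passed in a single list was then counted as bound in that cell type only. With heights of at least 0.5 in a list, 1447 genes were bound in both cell types, fewer than the 1585 in ISCs/EBs only, with 1139 in ECs only. The shared genes were then 47.7% of the ISC/EB list and 56.0% of the EC list. Their median difference was 0.01, with 178 genes higher by 0.2 or more in ISCs/EBs and 123 in ECs. Keeping only genes with an FDR listed as 0 left 84 genes in both, 233 in ISCs/EBs only and 418 in ECs only, so that shared binding was the least frequent class. The shared genes made up 26.5% of the ISC/EB list and 16.7% of the EC list, their median difference was 0.05, and 18 were higher in ISCs/EBs and 5 in ECs. That setting turned the order of the 2 exclusive classes round, and an FDR printed as 0 may be a rounded value. With no gene within 5 kb in the other list, 651 genes were bound in ISCs/EBs only and 524 in ECs only. A step of 0.4 left 85 genes higher in ISCs/EBs and 51 in ECs. Centring at the median height brought the median difference to 0, with 431 genes higher in ISCs/EBs and 441 in ECs. Among alternatives chosen after seeing the data, leaving out 3L gave a median of 0.01 and centring per arm one of 0, with 432 genes higher in ISCs/EBs and 402 in ECs, and leaving out genes that shared a peak with a gene bound in both left 1477 in ISCs/EBs only and 1195 in ECs only. The cause of these shifts was not tested. With a height minimum of 0.3, protein-coding genes alone or 1 gene per peak, every count stayed within 1.5 times of the reported one, and no setting changed the sign of the median difference.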
